A study of Mus musculus with 9 samples.

Results

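The NR4A2 ChIP-seq signal of the mouse heart was examined at short regions that lie far from any protein-coding gene. A region was included if it was under 2000 bp long and more than 10 kb from the span of every protein-coding gene in the RefSeq annotation of GRCm38.p6. These intergenic regions numbered 2001 of the 16884 regions in the authors' table (11.9%), and they were chosen by position and length alone. The regions were the authors' peak calls on these libraries, so a region that entered the table through a peak in 1 group had to be high there. The sources used here do not give how peaks of the 2 groups were merged.

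The libraries came from heart ventricle of 6 mice aged 8 to 9 weeks. In the 3 NR4A2 mice (Nr4a2-icTg) an Nr4a2 conditional knock-in at the ROSA26 locus was combined with the Myh6-cre/Esr1* transgene, which makes a tamoxifen-dependent Cre recombinase in cardiomyocytes. The 3 control mice were littermates with the inducible Cre alone (αMHC-MerCreMer). Every mouse received 1 intraperitoneal injection of tamoxifen at 40 mg/kg and was studied on day 3, so that Cre and tamoxifen were shared by both groups and no untreated group was included. The Myh6 promoter limits recombination to cardiomyocytes, whereas the chromatin came from all cells of the ventricle, and a change in the signal per cell cannot be told apart from a change in the number of cells of a type. The sex of the mice is not given, and NR4A2 levels were not analysed here. Mice are the replicates, with n = 3 per group throughout, and p-values set differences against the spread between them. For single regions that spread was estimated in part from all 16884 regions, and not from the 6 values of the region alone.

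NR4A2 (Nurr1) is an orphan nuclear receptor of the NR4A family, which acts without a known natural ligand. It binds DNA as a monomer at the NGFI-B response element (NBRE), an AGGTCA core preceded by A residues, and its genes are induced quickly by hormones, stress and activity. Many transcription factors of the heart bind at enhancers, which lie between or within genes at a distance from the promoters that they control. The nearest gene is used below as a landmark for each region, and whether a region acts on that gene was not tested.

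Sequence could be read for the 97 intergenic regions that overlapped the promoter window of a non-coding gene (250 bases before to 50 bases after its start, from RefSeq, build GRCm38.p6). Such windows are the only stretches of these regions with letters in the sources used here. Only 1 window was read per region, the one with the largest overlap. The region at 5430401H09Rik overlapped 13 windows and that at Gm31619 overlapped 3, and the other windows were not searched. Of the 97 regions, all of them at long non-coding RNA genes, 10 were higher in NR4A2 hearts, 4 were lower and 83 were not called. The first 2 stretches shown are those of the higher regions whose part inside the window read held an NBRE (AAAGGTCA on either strand). The next is of 1 higher region with the AGGTCA core alone in that part. The last is of the lower region with the strongest decrease among the 4, and this stretch held neither. They were chosen after their letters and values were known. Capitals mark the NBRE or the core, and each stretch is the part of the window inside the region, on the minus strand, 5′ to 3′.
5430401H09Rik, chr12:32123743-32124042: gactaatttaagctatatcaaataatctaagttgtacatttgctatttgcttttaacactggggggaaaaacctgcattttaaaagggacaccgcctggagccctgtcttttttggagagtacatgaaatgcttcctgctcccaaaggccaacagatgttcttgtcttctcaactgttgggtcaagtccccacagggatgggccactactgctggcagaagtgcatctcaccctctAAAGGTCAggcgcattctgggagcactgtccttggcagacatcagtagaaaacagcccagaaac
LOC108169085, chr5:148953225-148953446: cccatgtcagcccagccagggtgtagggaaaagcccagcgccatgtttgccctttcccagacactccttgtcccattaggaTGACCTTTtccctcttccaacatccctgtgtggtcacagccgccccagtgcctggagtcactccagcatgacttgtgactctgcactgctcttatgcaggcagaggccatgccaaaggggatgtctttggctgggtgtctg
Gm40403, chr12:40248107-40248334: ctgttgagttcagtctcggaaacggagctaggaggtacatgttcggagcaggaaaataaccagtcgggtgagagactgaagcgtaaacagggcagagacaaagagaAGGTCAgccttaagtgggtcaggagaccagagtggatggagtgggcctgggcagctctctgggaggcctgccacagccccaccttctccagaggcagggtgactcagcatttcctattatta
Gm31619, chr2:167589432-167589719: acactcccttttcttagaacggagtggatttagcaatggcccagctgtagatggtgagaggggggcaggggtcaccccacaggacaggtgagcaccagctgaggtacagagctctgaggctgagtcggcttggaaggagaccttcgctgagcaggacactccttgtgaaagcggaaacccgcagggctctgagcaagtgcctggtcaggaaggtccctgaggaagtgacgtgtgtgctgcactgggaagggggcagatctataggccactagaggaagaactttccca

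The region at the start of 5430401H09Rik had signals of 22.5, 25.3 and 9.05 CPM (reads scaled to a common library size) in the control mice and 90.7, 121 and 126 CPM in the NR4A2 mice. At LOC108169085, whose stretch holds the NBRE on its other strand, the values were 15.4, 13.6 and 18.1 CPM against 41.1, 34.7 and 68.1 CPM. At Gm40403 they were 7.17, 5.84 and 7.24 CPM against 40.1, 41.0 and 32.8 CPM. All 3 regions had every NR4A2 mouse above every control mouse. Their differences of mean log2(CPM + 1), used as the log2 fold change throughout, were 2.61 ± 0.31 (SE, adjusted p = 3.62e-10), 1.50 ± 0.38 (adjusted p = 0.00187) and 2.33 ± 0.47 (adjusted p = 9.69e-05). The region at Gm31619 went the other way, with 93.2, 155 and 88.7 CPM in the control mice and 49.7, 67.8 and 59.3 CPM in the NR4A2 mice (-0.88 ± 0.23, adjusted p = 0.00277). Without control mouse 2 that call was lost (-0.63, adjusted p = 0.114).

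The motif counts in these windows, with 1 window read per region, were small. The NBRE was found on either strand in 495 of all 32851 promoter windows (1.51%), in 2 of the 10 windows of higher regions, in none of the 4 windows of lower regions and in 4 of the 83 windows of uncalled regions. The AGGTCA core, which every NBRE contains, was found in 16.3% of all windows, in 6 of the 10, in 1 of the 4 and in 17 of the 83. Counted only within the part of the window inside the region, the core was present for 6 of the 10 higher, 1 of the 4 lower and 15 of the 83 uncalled regions. That part was 288 of 882 bp at Gm31619 and 25 of 225 bp at Gm30327, and further windows of a region were not searched, so absence from a whole region is not shown. The AP-1 motif TGANTCA was present in 7.81% of all windows, in 1 of the 10 higher and in 7 of the 83 uncalled ones. The GATA motif AGATAAG was present in 3.04% of all windows, in 1 of the 10 and in 2 of the 83. The TEAD motif GGAATG was present in 14.7% of all windows, in 3 of the 10 and in 19 of the 83. The windows of the 4 lower regions held none of these last 3 motifs. A match describes letters only, and most intergenic regions had no window in which to look.

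NR4A2 hearts had more NR4A2 signal than control hearts at 733 of the intergenic regions and less at 41. These were 36.6% and 2.05% of the 2001 regions at an adjusted p under 0.05, against a background over all 16884 regions of 14.7% higher and 3.17% lower. The median log2 fold change was 0.58 in the intergenic regions and -0.06 over all regions. Among regions of at least median CPM it was -0.03 in the 559 intergenic ones and -0.16 over all. All 3 NR4A2 mice were above all 3 control mice in 886 intergenic regions (44.3%), with 19.9% over all regions, and all 3 were below in 144 (7.20%), with 11.7% over all regions. The authors' deposited table called 748 of the intergenic regions up (37.4%, with 14.9% over all regions) and 33 down (1.65%, with 1.95% over all regions). Of the 748 regions called up there, 717 were also higher here, which is 95.9% of that list and 97.8% of the 733. Of the 33 called down, 27 were also lower here, which is 81.8% of that list and 65.9% of the 41.

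**Figure D1:**
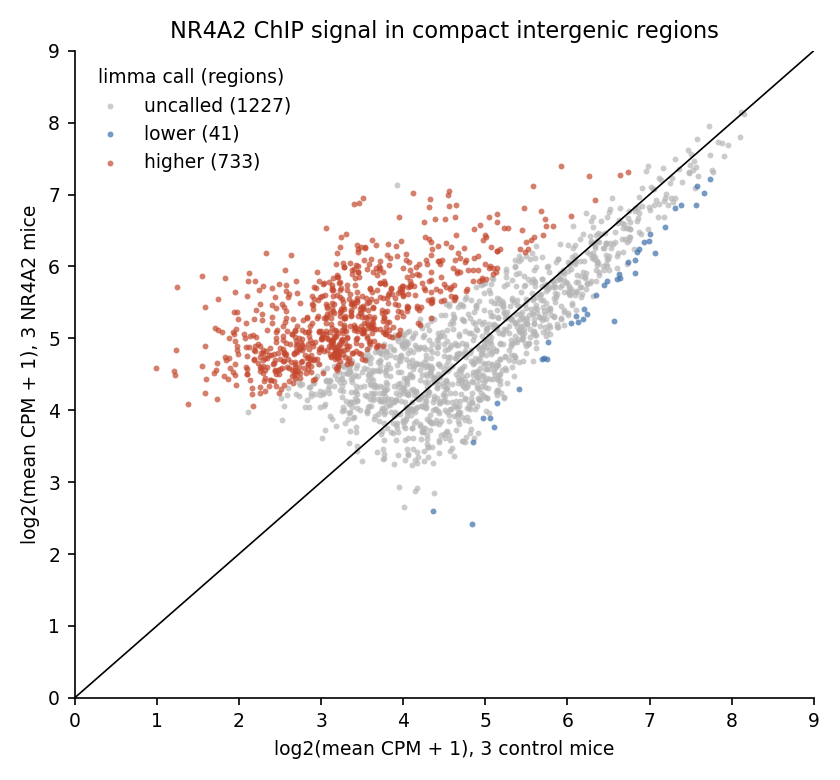
Mean signal of each of the 2001 intergenic regions in the 3 control mice (x axis) and in the 3 NR4A2 mice (y axis), as log2(mean CPM + 1), with regions called higher, lower or neither in different colours and the diagonal marking equal signal. The 733 higher regions sit at the left, where control signal is low, and the 41 lower regions sit at the right.

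Without NR4A2 mouse 3 the higher regions numbered 488 (24.4%), of which 486 were among the 733. Over all regions the higher share was then 9.34%, where it was 14.7% with all 6 mice. The count of lower regions moved with more of the mice: it was 26 without control mouse 1, 18 without control mouse 2, 24 without NR4A2 mouse 1 and 21 without NR4A2 mouse 3. It was 37 without control mouse 3 and 47 without NR4A2 mouse 2, of which 23 and 26 were among the 41. Over all regions 1.60% to 2.69% were lower with 1 mouse left out, against 3.17% with every mouse. The scaling mattered more for the losses. The CPM are relative to the reads of each library in the listed regions, and with recovered reads left without depth scaling the counts were 486 higher and 2 lower. With each mouse scaled on its regions near gene ends, which moved the median log2 fold change of all regions from -0.06 to 0.10, they were 819 higher and 10 lower. Over all regions 8.28% were higher and 0.0829% lower without depth scaling, and 17.2% and 0.835% with gene-end scaling.

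The higher regions had little signal in control hearts. Their median was 8.50 CPM in control and 38.0 CPM in NR4A2 hearts, and 380 of the 733 had a log2 fold change of at least 2. Over all 16884 regions, 1054 of the 2475 higher ones had such a change. In 720 of the 733 the groups did not overlap, where 19.9% of all regions had every NR4A2 mouse above every control mouse. This and the low control signal are favoured by the call, which used the same values. Across the 2001 regions the Spearman correlation of the log2 fold change with control CPM was -0.779. The 41 lower regions started at a median of 88.3 CPM and ended at 52.3 CPM, a median log2 fold change of -0.79, and were longer (median 710 bp, against 360 bp). Expressed per kb of region, the medians were 23.2 and 103 CPM per kb for higher regions and 108 and 61.9 CPM per kb for lower ones. The 1227 uncalled regions had medians of 25.7 CPM in control and 25.9 CPM in NR4A2 hearts. In control mice 1, 2 and 3, 8, 6 and 44 intergenic regions had no read, and no intergenic region was without a read in any NR4A2 mouse. Entry into the set through a peak in the NR4A2 mice requires signal there and favours this contrast. Control mouse 3 was also the library with the fewest reads (549700 in all regions, where the other 5 had 637635 to 1035856), and 3 reads were worth 2.86 to 5.43 CPM across the libraries. No intergenic region was at 0 in all 3 control mice.

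The intergenic regions together took a larger share of the signal in every NR4A2 mouse. They held 5.83%, 6.19% and 5.68% of the CPM in control mice 1 to 3 (5.90% ± 0.264, SD) and 7.58%, 8.03% and 8.58% in NR4A2 mice 1 to 3 (8.06% ± 0.502). The groups did not overlap, and the difference of 2.16 percentage points had an exact two-sided permutation p of 0.1, the smallest that 3 mice against 3 can give. The difference lay in the 733 higher regions, whose share was 0.859%, 0.817% and 0.856% in control mice and 2.92%, 3.04% and 3.72% in NR4A2 mice. The uncalled regions took 4.61%, 4.98% and 4.42% against 4.44%, 4.75% and 4.63%, which overlap. The lower regions took 0.361%, 0.393% and 0.399% against 0.223%, 0.244% and 0.223%. The shares by call restate the choice of those regions and carry no test.

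Intergenic regions stood apart from regions at gene ends and resembled regions deep inside genes. Among the 7964 regions under 2000 bp that lay within 1 kb of an end of a protein-coding gene, 162 (2.03%) were higher and 306 (3.84%) were lower, with a median log2 fold change of -0.18. Their control signal per kb was higher, 114 CPM per kb at the median against 50.1 in intergenic regions, while in NR4A2 hearts the medians were 101 and 83.4 CPM per kb. The mean log2(CPM + 1) of intergenic regions minus that of gene-end regions was -1.52, -1.49 and -1.67 in control mice and -0.76, -0.58 and -0.53 in NR4A2 mice. This difference was thus smaller by 0.94 in NR4A2 hearts, with no overlap (exact two-sided permutation p = 0.1, the smallest possible).

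Among the 3198 compact regions inside a protein-coding gene and more than 10 kb from its ends, 979 (30.6%) were higher and 51 (1.59%) lower, with a median log2 fold change of 0.49. Their medians of 17.5 CPM in control and 29.3 CPM in NR4A2 hearts were close to the 17.6 and 31.2 CPM of intergenic regions. The mean log2 signal of intergenic minus deep intragenic regions was -0.05, 0.01 and 0.01 in control mice and 0.10, 0.10 and 0.10 in NR4A2 mice. All 3 NR4A2 mice were again above all 3 control mice, by 0.11 on average (exact two-sided permutation p = 0.1).

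**Figure D2:**
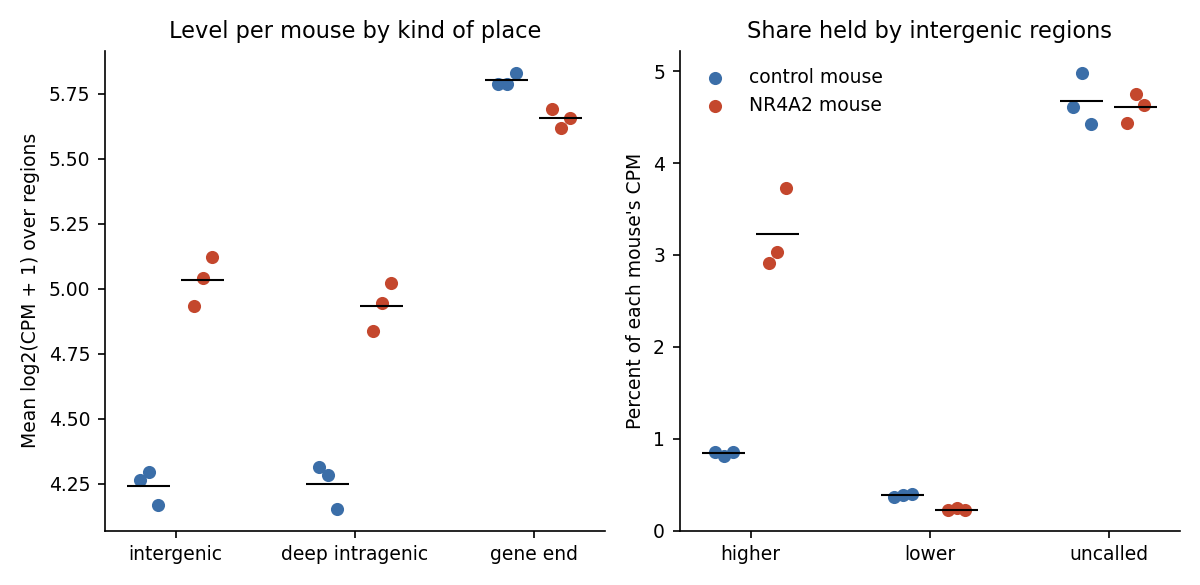
Mean log2(CPM + 1) over intergenic, deep intragenic and gene-end regions (left) and percent of each mouse's CPM held by the higher, lower and uncalled intergenic regions (right), with 1 point per mouse and a line at each group mean; the left axis does not start at 0. Intergenic regions go from 4.17 to 4.30 in control mice to 4.93 to 5.12 in NR4A2 mice, and gene-end regions from 5.79 to 5.83 to 5.62 to 5.69.

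Gains were counted more often among weak regions, and gene-end regions had more signal. All 16884 regions were ranked by their mean log2(CPM + 1) over the 6 mice and divided into quartiles of 4221 regions. In the weakest quartile 47.6% of 880 intergenic, 5.39% of 686 gene-end and 37.2% of 1477 deep intragenic regions were higher. In quartile 2 the shares were 38.2%, 3.13% and 33.6%, and in quartile 3 they were 21.6%, 1.34% and 17.3%. In the strongest quartile, 6.52% of 184 intergenic regions were higher and 10.9% were lower, against 1.30% and 6.04% at gene ends and 7.06% and 7.84% deep inside genes. Within each quartile, intergenic regions were thus called higher more often than gene-end regions. Regions are not independent replicates, and these shares carry no test.

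The share of higher regions was larger far from genes. It was 30.3% of 574 regions at 10 to 25 kb from the nearest protein-coding gene, 31.1% of 473 at 25 to 50 kb, 33.7% of 407 at 50 to 100 kb, 48.5% of 357 at 100 to 250 kb and 46.1% of 141 at 250 to 500 kb. Beyond 500 kb, 37 of 49 regions (75.5%) were higher and none was lower. The median log2 fold change went from 0.26 in the nearest of these bins to 1.18 at 100 to 250 kb and 2.08 beyond 500 kb. Control signal fell with distance, from a median of 20.5 CPM at 10 to 25 kb to 13.1 CPM at 100 to 250 kb and 10.3 CPM beyond 500 kb, whereas NR4A2 signal stayed between 26.8 and 32.7 CPM. A region with weak control signal that entered through a peak in the NR4A2 mice had to be high there. Entry by peak thus favours level NR4A2 signal and more gains where control signal is low. Across the 2001 regions the Spearman correlation with distance was 0.166 for the log2 fold change, -0.197 for control CPM and -0.058 for NR4A2 CPM, as a description of regions that share libraries.

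**Figure D3:**
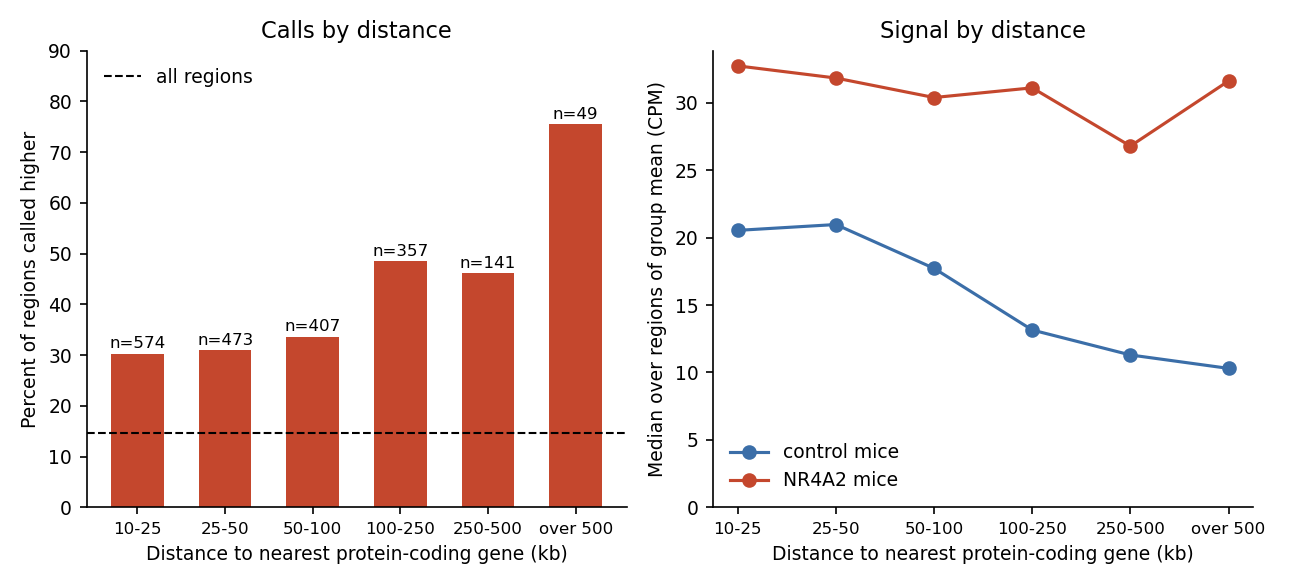
Percent of intergenic regions called higher (left, bars, with the number of regions above each and a dashed line at the 14.7% of all regions) and the median over regions of the group mean CPM in control and NR4A2 mice (right), by distance to the nearest protein-coding gene in kb. The higher share goes from 30.3% in the nearest class to 75.5% in the farthest, while control medians fall from 20.5 to 10.3 CPM.

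Among regions of similar strength the pattern by distance was present in the lower 3 quartiles and not in the strongest. The quartiles use the mean over all 6 mice, which the change itself moves. In the weakest quartile 41.2% of regions at 10 to 50 kb and 57.8% of those beyond 100 kb were higher. The shares were 34.3% and 50.3% in quartile 2 and 18.2% and 34.8% in quartile 3. In the strongest quartile, with 121 and 24 regions, they were 6.61% and 4.17%. At 50 to 100 kb the shares in quartiles 1 to 4 were 45.9%, 31.9%, 18.2% and 7.69%, so that in quartiles 2 and 3 they were not above those at 10 to 50 kb. In each mouse, the mean log2(CPM + 1) of the 1047 regions at 10 to 50 kb was 4.48, 4.51 and 4.36 in control and 5.00, 5.11 and 5.15 in NR4A2 mice. For the 547 regions beyond 100 kb it was 3.83, 3.83 and 3.79 in control and 4.83, 4.95 and 5.10 in NR4A2 mice. The far regions thus had less signal in control mice and nearly the same level in NR4A2 mice, which entry through peaks of these libraries favours.

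Distance from protein-coding genes did not mean distance from all genes. The span of an annotated non-coding gene or pseudogene overlapped 565 of the 2001 regions, and 161 of these (28.5%) were higher. A further 467 lay within 10 kb of such a gene, with 162 higher (34.7%). The remaining 969 were more than 10 kb from any gene, with 410 higher (42.3%), and of the 59 that were over 100 kb from any gene 32 were higher (54.2%) and none was lower. The 97 regions at promoter windows of non-coding genes had 10 higher (10.3%), where the other 1904 had 723 (38.0%). They also had more control signal, a median of 42.0 CPM against 16.9 CPM.

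Regions next to the limit of 10 kb, given as a description, included called and uncalled ones. Just inside the set lay regions 10006 bp from Nicn1, with 12.5 CPM in NR4A2 hearts and a log2 fold change of -0.08, 10021 bp from Tpt1, with 112 CPM in control and 109 CPM in NR4A2 hearts, and 10055 bp from Zbtb40, with 7.78 and 51.2 CPM. Just outside it lay regions 9994 bp from Anp32e, with 12.8 and 28.8 CPM, 9876 bp from Tekt5, with 12.9 and 73.2 CPM, and 9869 bp from Fam117b, with 32.4 and 21.2 CPM.

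The strongest gains were near genes of several kinds. Of the 80 higher regions with at least the median signal of all regions (mean log2 over the 6 mice) and groups that did not overlap, the 12 with the largest gains went from 14.4 to 24.0 CPM in control hearts to 82.1 to 131 CPM in NR4A2 hearts. They reached that signal through the NR4A2 mice, since all 12 were below the median of all regions in control hearts (37.0 CPM). The largest gain was at chr2:113978275-113978853, 31 kb from Gjd2, which encodes the gap junction protein connexin 36. Its values were 19.5, 22.4 and 7.24 CPM in control and 113, 97.7 and 177 CPM in NR4A2 mice, a log2 fold change of 2.99 ± 0.32 (adjusted p = 6.22e-11). The region at chr12:111513822-111514485, 24 kb from the translation initiation factor gene Eif5, had 12.3, 14.6 and 16.3 CPM against 97.4, 93.0 and 117 CPM (2.75 ± 0.31). At chr8:46907045-46908128, 31 kb from Enpp6, a choline phosphodiesterase gene, the values were 21.5, 15.6 and 19.9 CPM against 117, 117 and 130 CPM (2.62 ± 0.28). In NR4A2 hearts these 3 regions were above the median of all regions (39.3 CPM).

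The fourth of the 12 was the 5430401H09Rik region described above, 49 kb from Pik3cg, the gene of a phosphoinositide 3-kinase subunit. The region at chr13:16210774-16211967 lay 179 kb from Inhba, which encodes a subunit of activin A, and had 30.7, 13.6 and 23.5 CPM in control and 86.9, 161 and 146 CPM in NR4A2 mice (2.51 ± 0.28). The region at chr16:30005079-30005691, 60 kb from the Notch target gene Hes1, had 16.4, 25.3 and 18.1 CPM against 73.5, 104 and 124 CPM (2.27 ± 0.30). The region at chr9:6643441-6644279, 109 kb from the growth factor gene Pdgfd, had 14.3, 11.7 and 30.8 CPM against 58.2, 82.0 and 106 CPM (2.14 ± 0.33). The others were nearest to Ubl3 (log2 fold change 2.48), Zfand5 (2.48), the Mediator subunit gene Med21 (2.29), Gm46617 (2.27) and the complement regulator gene Susd4 (2.16). All 12 kept their call whichever single mouse was left out, with adjusted p of at most 0.00218.

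**Figure D4:**
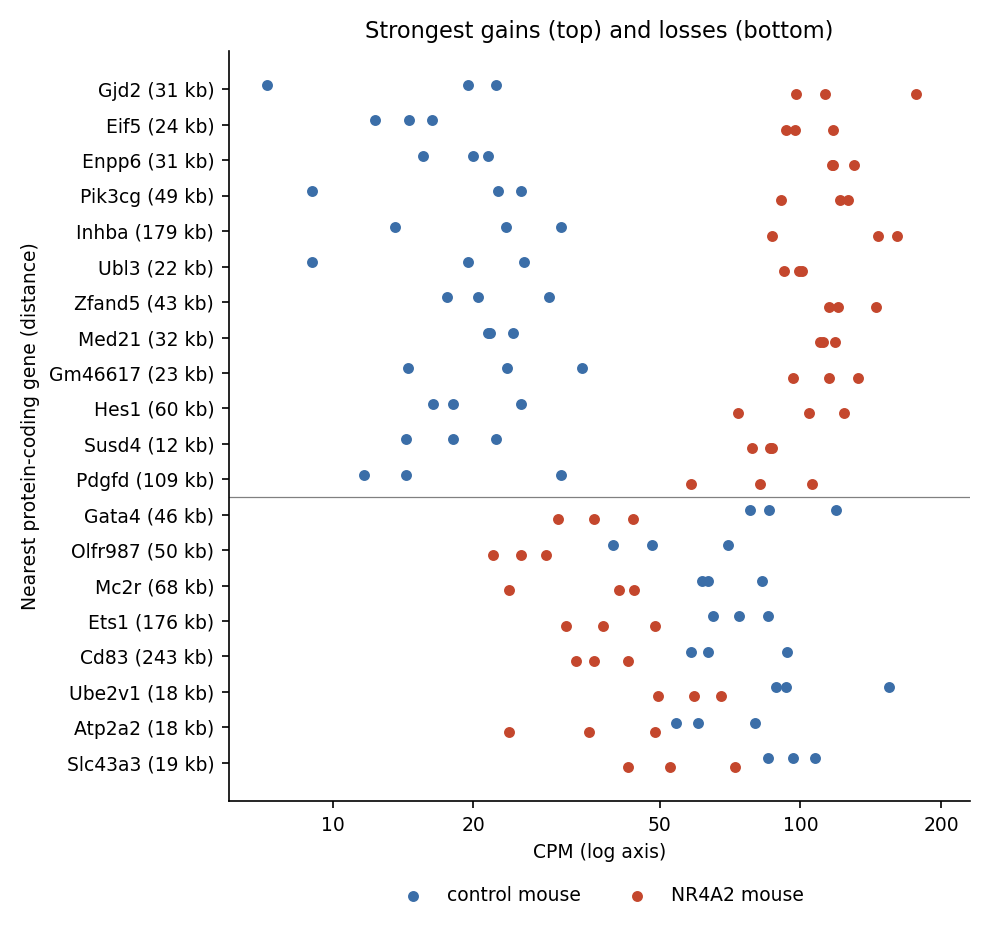
CPM (log axis) of each mouse at the 12 strongest gains (above the line) and the 8 strongest losses (below it), each named by its nearest protein-coding gene and the distance to it in kb. The groups do not overlap in the 20 regions because that was a condition of their choice, and the gains span a wider range than the losses.

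The strongest losses were smaller. The largest of the 24 that met the same conditions was at chr14:63317647-63318937, 46 kb from Gata4, which encodes a transcription factor of cardiac development and hypertrophy. Its values were 119, 85.6 and 77.8 CPM in control and 43.9, 36.3 and 30.3 CPM in NR4A2 mice, so that every NR4A2 mouse was below every control mouse (-1.32 ± 0.26, adjusted p = 6.42e-05). This call held under each alternative fit and without any single mouse. The region at chr9:32933402-32934105, 176 kb from Ets1, a transcription factor gene of endothelial and lymphoid cells, had 85.0, 74.0 and 65.2 CPM against 31.5, 48.9 and 37.8 CPM (-0.92 ± 0.27, adjusted p = 0.00896). The region at chr5:122520383-122520914, 18 kb from Atp2a2, the gene of the sarcoplasmic calcium pump SERCA2, had 60.5, 79.8 and 54.3 CPM against 23.9, 48.9 and 35.3 CPM (-0.87 ± 0.29, adjusted p = 0.0255).

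Of the other 5 losses, those nearest to Olfr987 (an olfactory receptor gene), Mc2r (the ACTH receptor gene), Cd83 (a gene of mature dendritic cells), Ube2v1 and Slc43a3, the first went from 52.7 to 25.3 CPM at the group means and the others had log2 fold changes of -0.95, -0.90, -0.88 and -0.80. Apart from the Gata4 region, each of the 8 lost its call without at least 1 mouse. The Cd83 and Ube2v1 regions did so without control mouse 2 (adjusted p = 0.169 and 0.114). The Mc2r region did so without control mouse 2 (0.0961) or NR4A2 mouse 1 (0.119). The Ets1 region did so without control mouse 1 (0.0675) or NR4A2 mouse 1 (0.0618), and the Slc43a3 region without control mouse 1 (0.0661) or NR4A2 mouse 3 (0.101). The Atp2a2 region did so without control mouse 1 or 2 or NR4A2 mouse 1 or 3 (0.0523 to 0.188), and the Olfr987 region without control mouse 1 or 2 or NR4A2 mouse 2 or 3 (0.0513 to 0.207). These 7 calls were also lost with recovered reads left without depth scaling, and those of the Olfr987, Atp2a2, Cd83 and Slc43a3 regions with gene-end scaling. The signal filter ended the calls of the Olfr987 and Atp2a2 regions, and DESeq2 that of the Atp2a2 region.

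The intergenic regions with the most signal, ranked by CPM per region and not per kb, did not pass the test. Among the strongest in control hearts were those nearest to Klf4 (284 CPM), Anapc16 (276), Eif4g2 (248) and Spag6 (239), and in NR4A2 hearts Anapc16 (282), Klf4 (278), Eed (246) and Ccnl1 (217). The region 118 kb from Klf4, an immediate early transcription factor gene, had 266, 299 and 286 CPM in control and 289, 296 and 248 CPM in NR4A2 mice (-0.03 ± 0.16, adjusted p = 0.921). The region 17 kb from Spag6, a sperm flagellum gene, had 241, 223 and 253 CPM against 181, 194 and 180 CPM. Its NR4A2 values were all below the control values, but the difference of -0.36 ± 0.17 did not pass (adjusted p = 0.125).

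Some higher regions lay close to others. Chaining regions with gaps of at most 25 kb gave 1471 loci, of which 322 held 2 or more regions and 852 regions in all. In 40 of these 322 every region was higher, in 155 none was called, and in 1 both directions occurred. Since 36.6% of all intergenic regions were higher, some such loci arise from that share alone. Whether gains lay together more often than that was not tested. Of the 5 loci described here, those with the most called regions (ties taken by the larger mean log2 fold change), the leading one had 5 called regions and the others 3 each. It spanned 28.4 kb at chr2:166398974-166427345, 112 to 139 kb from Gm30733 or Prex1, a Rac exchange factor gene. Its 6 regions summed to 106, 68.1 and 118 CPM in control and 319, 329 and 376 CPM in NR4A2 mice, and 5 of the 6 were higher. The strongest single change there was 7.17, 8.76 and 18.1 CPM against 75.4, 48.9 and 121 CPM (2.75 ± 0.38, adjusted p = 2.34e-08).

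The locus 178 to 190 kb from Cops8, a COP9 signalosome subunit gene, spanned 11.8 kb at chr1:90412737-90424504 over the long non-coding RNA gene Gm34992. Its 4 regions summed to 51.2, 44.8 and 54.3 CPM in control and 176, 194 and 246 CPM in NR4A2 mice. One of its 3 higher regions had 6.15, 4.87 and 1.81 CPM against 47.7, 44.1 and 60.5 CPM (3.39 ± 0.50, adjusted p = 1.53e-07). The fourth region of the locus had 27.3 CPM against 45.4 CPM at the group means and was not called (adjusted p = 0.193).

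The 3 regions of the Inhba locus (chr13:16208903-16220278) overlapped the span of the non-coding gene Gm31711, and all of them were higher. They summed to 51.2, 26.3 and 45.3 CPM in control and 165, 225 and 241 CPM in NR4A2 mice. The smallest of the 3 lost its call without NR4A2 mouse 3 (adjusted p = 0.0506). The locus 43 to 102 kb from Chd7, a chromatin remodeller gene, held 3 higher and 2 uncalled regions and summed to 77.9, 93.4 and 88.7 CPM against 146, 161 and 184 CPM. A higher region of this locus with 3.28 CPM in control hearts lost its call without NR4A2 mouse 2 (adjusted p = 0.104). The locus 37 to 53 kb from Map2k4, a stress kinase gene, held 3 higher and 1 uncalled region and summed to 103, 71.0 and 99.6 CPM against 188, 271 and 204 CPM. In all 5 loci the lowest NR4A2 sum was above the highest control sum, which the choice of loci by their called regions favours.

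**Figure D5:**
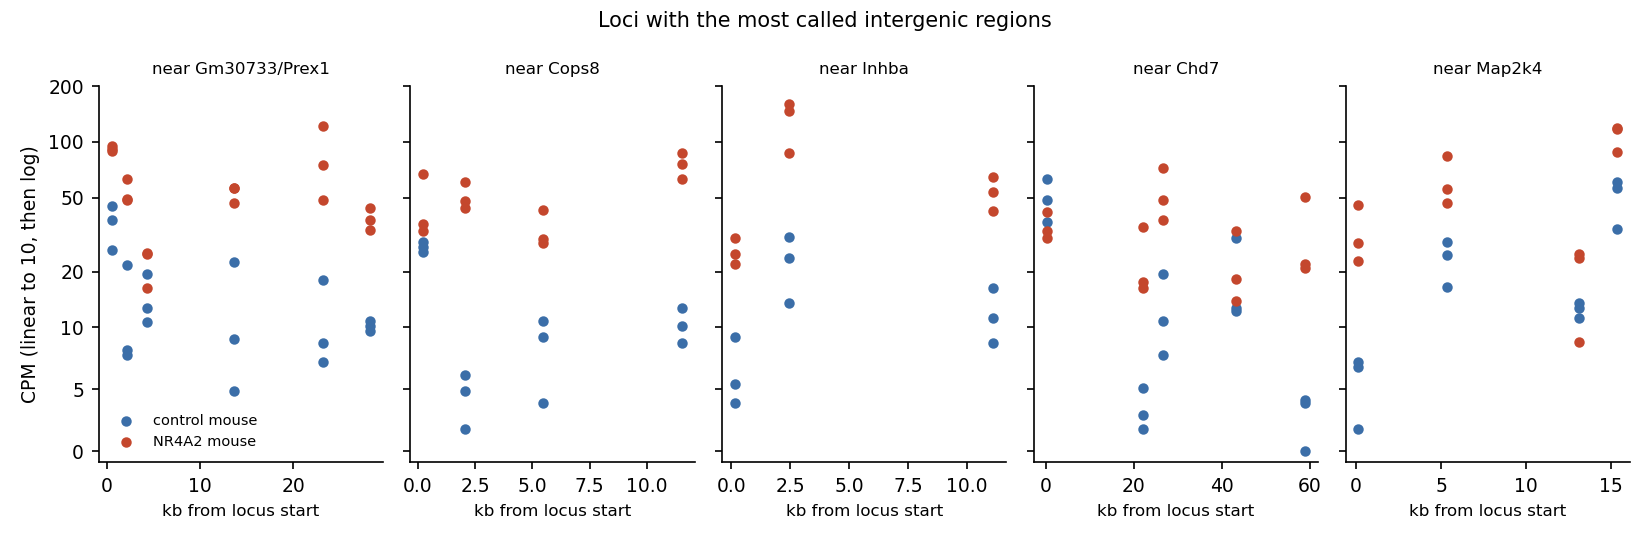
CPM of each mouse (linear to 10, then log) at each intergenic region of the 5 loci described in the text, plotted by distance in kb from the start of the locus and named by the nearest protein-coding genes. Every region of the Inhba locus has its NR4A2 points above its control points, whereas the Chd7 and Map2k4 loci hold regions where the groups overlap.

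Regions were then read by the gene nearest to them, using 16 lists of cardiac and other genes. The nearest gene was in a list for 166 regions, of which 56 (33.7%) were higher and 3 (1.81%) lower, close to the 36.9% and 2.07% of the 1835 regions with no listed gene nearby. The lists thus did not gather the gains. The largest list count was for genes of cardiac transcription factors, with 14 of 30 regions higher, 1 lower and a median log2 fold change of 1.31. Regions near nuclear receptor and partner genes followed, with 8 of 15 higher, none lower and a median of 1.77. These and the list counts below are to be read beside the 36.6% higher, 2.05% lower and median of 0.58 of all intergenic regions.

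Among cardiac transcription factor genes, the region at chr5:119575042-119575437, 95 kb from Tbx3, a factor of the conduction system, had 19.5, 17.5 and 7.24 CPM in control and 82.1, 82.0 and 78.2 CPM in NR4A2 mice (2.48 ± 0.35, adjusted p = 2.93e-08). The region at chr17:26861315-26861753, 16 kb from Nkx2-5, a core factor of the cardiac lineage, had 15.4, 14.6 and 12.7 CPM against 66.8, 69.4 and 73.2 CPM (2.22 ± 0.34, adjusted p = 4.90e-07). The region at chr8:91787321-91787751, 11 kb from Irx3, a factor of ventricular conduction, had 19.5, 16.5 and 14.5 CPM against 62.1, 55.2 and 70.6 CPM (1.84 ± 0.34). The NR4A2 mice were close to each other at all 3 regions and far from the control mice. These 3 had the smallest adjusted p of the 30 regions of the list, a choice that favours such values.

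Near nuclear receptor and partner genes, the region at chr5:51125187-51125539, 329 kb from Ppargc1a, which encodes the mitochondrial coactivator PGC-1α, had 5.12, 9.73 and 0 CPM in control and 35.3, 50.4 and 71.9 CPM in NR4A2 mice (3.67 ± 0.60, adjusted p = 6.77e-06). A nearer one, 14 kb from Ppargc1a at chr5:51439768-51440484, had 25.6, 12.7 and 12.7 CPM against 57.3, 74.1 and 44.1 CPM (1.77 ± 0.36). The region at chr13:79111286-79111798 lay 912 kb from Nr2f1, the gene of the atrial orphan receptor COUP-TFI, and had 4.10, 5.84 and 5.43 CPM against 43.0, 45.7 and 55.5 CPM (3.01 ± 0.47). The circadian list held a single region, 247 kb from Rora, an orphan receptor gene of the clock, with 2.05, 5.84 and 1.81 CPM against 22.0, 22.1 and 41.6 CPM (2.86 ± 0.65, adjusted p = 0.000520).

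Fuel-use genes had 5 of 11 regions higher for fatty acids (45.5%) and 2 of 6 for glucose (33.3%), with none lower. The region at chr8:46404145-46404600, 66 kb from Acsl1, which activates long-chain fatty acids, had 8.20, 3.89 and 9.05 CPM in control and 28.6, 58.3 and 54.2 CPM in NR4A2 mice (2.58 ± 0.46, adjusted p = 1.04e-05), and a second one 32 kb from it rose by 2.05 ± 0.44. The region at chr4:107944044-107944454, 20 kb from Cpt2, a carnitine shuttle enzyme gene, had 12.3, 14.6 and 10.9 CPM against 44.9, 47.3 and 71.9 CPM (2.01 ± 0.38). The region 13 kb from Pdk4, which restrains glucose oxidation, had 10.2, 8.76 and 12.7 CPM against 22.0, 31.5 and 61.8 CPM (1.66 ± 0.44, adjusted p = 0.00378). That call was lost without NR4A2 mouse 3 (adjusted p = 0.110). The region near Tbc1d1, a regulator of glucose transport, was higher (1.33 ± 0.39, adjusted p = 0.00916) and was not without control mouse 1, NR4A2 mouse 1 or NR4A2 mouse 3 (0.0526 to 0.0539).

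For contraction and rhythm, 4 of 13 regions near sarcomere and Z-disc genes (30.8%) were higher. The counts were 6 of 16 near ion channel and conduction genes (37.5%) and 1 of 9 near calcium handling genes (11.1%). The region at chr1:43247484-43249236, 49 kb from Fhl2, a LIM protein of the sarcomere, had 82.0, 70.1 and 76.0 CPM in control and 158, 164 and 135 CPM in NR4A2 mice (0.99 ± 0.20, adjusted p = 9.55e-05). At 207 kb from Gja1, the connexin 43 gene, a region at chr10:56597472-56597723 had 8.20, 6.81 and 7.24 CPM against 27.7, 44.1 and 56.8 CPM (2.33 ± 0.46). The region 86 kb from Kcnd3, a potassium channel gene of the transient outward current, had 5.12, 5.84 and 3.62 CPM against 31.5, 18.9 and 30.3 CPM (2.24 ± 0.58, adjusted p = 0.00236). The calcium handling list held 1 region in each direction, the Atp2a2 loss described above and a gain 41 kb from Slc8a1, the sodium-calcium exchanger gene (1.22 ± 0.36, adjusted p = 0.00872, and 0.166 without NR4A2 mouse 3). A second Fhl2 region (1.44, adjusted p = 0.0183) and a Pdlim5 region (1.12, adjusted p = 0.0101) lost their calls without control mouse 1 (0.0830 and 0.0635), NR4A2 mouse 2 (0.0765 and 0.0903) or, for Fhl2, NR4A2 mouse 3 (0.161).

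Growth, stress and immediate early genes gave 5 of 14, 1 of 5 and 7 of 34 higher regions, with none lower. The largest change among them was at chr1:82168340-82168759, 64 kb from Irs1, the insulin receptor substrate gene, with 5.12, 6.81 and 3.62 CPM in control and 52.5, 70.9 and 88.3 CPM in NR4A2 mice (3.53 ± 0.44, adjusted p = 1.06e-09). Regions near Plcb1 (2.42 ± 0.63) and Pde3a (2.58 ± 0.68), of phospholipase and cyclic nucleotide signalling, were higher but not without NR4A2 mouse 3 (adjusted p = 0.0639 and 0.0888). The region near Ccn2, a matricellular protein gene of cardiac stress, was higher (1.13 ± 0.35, adjusted p = 0.0133) and was not without NR4A2 mouse 1 (0.107) or NR4A2 mouse 3 (0.136). The region at chr7:35146347-35146761, 24 kb from Cebpa, a transcription factor gene of metabolic tissues, had 9.22, 8.76 and 5.43 CPM against 44.9, 34.7 and 53.0 CPM (2.37 ± 0.45). Regions near Tgfb2 (0.97 ± 0.38, adjusted p = 0.0658) and Atf3 (1.56 ± 0.62, adjusted p = 0.0693) did not pass. With 1 mouse left out, the Tgfb2 region passed only without control mouse 2 and the Atf3 region only without control mouse 1.

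Regions near markers of other cell types of the ventricle were few. Endothelial markers had 3 of 7 regions higher (42.9%, against 36.6% of all intergenic regions). Among them was chr5:75878375-75878687, 54 kb from the VEGF receptor gene Kdr. It had 13.3, 9.73 and 9.05 CPM in control and 61.1, 37.8 and 39.1 CPM in NR4A2 mice (1.99 ± 0.41, adjusted p = 0.000141). A second Kdr region, at 26 kb, rose by 1.61 ± 0.34, and the Cdh5 region (1.62 ± 0.45, adjusted p = 0.00567) lost its call without NR4A2 mouse 3 (0.0921). Fibroblast markers had a median log2 fold change of 0.63 over 5 regions, none of them higher and 1 lower. That region, chr6:4488499-4488907, 17 kb from the collagen gene Col1a2, had 19.5, 34.1 and 29.0 CPM in control and 4.77, 3.15 and 5.05 CPM in NR4A2 mice (-2.40 ± 0.59, adjusted p = 0.00135), the largest decrease of all 2001 regions, and remained lower without any single mouse (adjusted p of at most 0.0436). Its NR4A2 values were worth 2 to 5 reads. The 4 other fibroblast regions were not called, among them those near Dcn (0.77 ± 0.41, adjusted p = 0.206) and Dpt (0.80 ± 0.58, adjusted p = 0.389). No region was nearest to an immune marker gene, the single smooth muscle region (Acta2, 0.29 ± 0.47) and the 2 neuronal ones (Snap25, -0.32 ± 0.29 and 0.15 ± 0.35) did not pass, and the part of cell composition in these values was not tested.

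Beyond 500 kb from any protein-coding gene, the 5 called regions with the smallest adjusted p are given, of 37 higher and 12 uncalled ones. The region at chr4:38212098-38212527, 1238 kb from 1700009N14Rik, had 4.10, 5.84 and 21.7 CPM in control and 86.9, 72.5 and 69.4 CPM in NR4A2 mice (3.05 ± 0.41, adjusted p = 2.88e-08). The region at chr14:71500117-71500602, 520 kb from Gfra2, a neurotrophic factor receptor gene, had 3.07, 0.973 and 3.62 CPM against 36.3, 47.3 and 85.8 CPM (4.01 ± 0.56, adjusted p = 3.05e-08). The region at chr12:46025011-46026231, 672 kb from Nova1, a splicing regulator gene, had 30.7, 22.4 and 18.1 CPM against 91.7, 97.7 and 116 CPM (2.08 ± 0.28). The region at chr15:62641170-62641708, 651 kb from the growth regulator gene Myc, had 8.20, 12.7 and 18.1 CPM against 62.1, 78.8 and 70.6 CPM (2.41 ± 0.36). The fifth was the Nr2f1 region given above. All 5 remained called without any single mouse, which a choice by smallest adjusted p favours.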

How the data were processed

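NR4A2 was immunoprecipitated with antibody 9D12 (5.5 µg per 30 µg of chromatin), with Drosophila chromatin (200 ng) and an H2Av antibody (0.4 µg) added, per the labels' protocols. Of 9 samples in the series, the 6 mouse ChIP libraries were used. The antibody-test ChIP, its input and the pooled input were not analysed here. The submitters' processing notes name BWA and GRCm38 (mm10). The peak caller, merging, counter, filters and any use of the fly reads are not stated there or in the labels.

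The authors deposited CPM per region and mouse, next to their own log2 fold change, FDR and p-value columns. The authors' log2 values and p-value columns were used only through their deposited up and down calls. All CPM values were whole multiples of 1 read (tolerance 0.001 of a read), so the reads behind the deposited CPM were recovered. They numbered 549700 to 1035856 per library, with 1 read worth 0.955 to 1.81 CPM. No column of per-mouse values was left unmatched.

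limma 3.58.1 (R 4.3.3, trend and robust) was fitted to log2(CPM + 1) of all 16884 regions with genotype as the only term, with Benjamini-Hochberg adjustment over all of them. Regions under an adjusted p of 0.05 were called higher or lower. The added 1 understates changes of weak regions. Values of whole sets were compared over mice by exact permutation. On reads simulated for this comparison over 16884 regions, 28% of 100 regions changed by 1 and 84% of 100 changed by 2 on the log2 scale were recovered, with 1 false call. The changed regions were drawn from all regions (control median 37.0 CPM, against 17.6 CPM in intergenic ones). They were also far fewer than the regions called in the data. These rates thus do not give the recovery among intergenic regions. Alternatives were other pseudocounts, edgeR 4.0.16 and DESeq2 1.42.0 on recovered reads, other scalings, a signal filter, other distance limits, a replicate block and leaving out each mouse.

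Distances are to the nearest end of a gene span in RefSeq (GRCm38.p6), which gives no strand or exons. Of 435 genes in 16 lists, 434 matched by symbol. Named regions were the 12 largest gains and 8 largest losses among called regions of at least median signal with groups that did not overlap, the 5 strongest per group, the 5 loci with most calls (ties by mean log2 fold change), up to 3 regions per list by adjusted p, 3 on each side of the 10 kb limit and up to 5 called beyond 500 kb. 1 region that this rule names is not reported here. The regions and lists were chosen with earlier results of these data known.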

Additional observations from a re-analysis of the deposited data

How the results depend on the processing

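The 733 higher intergenic regions numbered 718 and 754 with pseudocounts of 0.5 and 3, 748 with edgeR, 674 with DESeq2 and 819 with gene-end scaling. They fell to 113 of 559 when regions under the median CPM were left out, to 486 without depth scaling and to 412 with a limit of 50 kb, and ranged from 488 to 713 with 1 mouse left out. The 41 lower regions were less stable. They numbered 15 after the filter, 18 with DESeq2, 2 without depth scaling, 10 with gene-end scaling, 27 and 17 with limits of 25 and 50 kb, and 18 to 47 with 1 mouse left out. Over all regions tested the lower share was 2.78% after the filter, 1.49% with DESeq2, 0.0829% without depth scaling and 0.835% with gene-end scaling. It was 3.17% in the main fit and 1.60% to 2.69% with 1 mouse left out. The signal filter and the distance limits leave fewer regions; the cause of the other shifts was not tested.

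The difference in CPM share was 1.90 to 2.40 percentage points with 1 mouse left out, and the differences against gene-end and deep intragenic regions were 0.886 to 1.01 and 0.0860 to 0.118. The 70 called regions that the naming rule picked changed direction under no alternative. They lost 17 calls without depth scaling, 12 without NR4A2 mouse 3 and at most 7 under any other alternative. The 22 uncalled ones gained 4 calls over all alternatives, and 7 of the 22 changed sign around 0. With gene-end scaling the log2 fold change was 0.14 at Klf4, 0.076 at Nicn1 and 0.12 at Tpt1, and without depth scaling -0.0017 at Anapc16. With 1 mouse left out the ranges were -0.080 to 0.047 at Klf4, -0.11 to 0.11 at Anapc16, -0.013 to 0.44 at Eed, -0.079 to 0.66 at a Chd7 region, -0.12 to 0.31 at a Snap25 region, -0.42 to 0.31 at Nicn1 and -0.18 to 0.083 at Tpt1.

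Labels give both groups the numbers 1 to 3 without saying that a number is shared. Same-numbered mice had correlations of deviations of -0.066, 0.061 and 0.033, so the numbers were not taken as pairs. With a replicate block, limma called 744 higher and 46 lower, and edgeR with the block, added after seeing the data, 740 and 43.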

Other observations

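The largest gain among uncalled intergenic regions was at chr12:79975261-79976141, 127 kb from Rad51b, a DNA repair gene, and was picked after its values were seen. It had 14.3, 28.2 and 0 CPM in control mice and 130, 131 and 158 CPM in NR4A2 mice, so that the groups were far apart. limma gave 4.19 ± 1.41 and an adjusted p of 0.138, which was 2.89e-17 with edgeR and 0.0179 with DESeq2 on recovered reads. It was 0.0326 in limma with the replicate block and 4.63e-09 with no depth scaling. Without control mouse 3, the mouse at 0, limma gave 2.72 and an adjusted p of 3.25e-17, and without any other single mouse 0.105 to 0.327. In all, 4 uncalled intergenic regions had a log2 fold change of at least 2, and all 4 had groups that did not overlap and no read in control mouse 3. The largest gain of all, at chr17:4982446-4982811 and 11 kb from Arid1b, a chromatin remodeller gene, had 4.10, 0 and 0 CPM against 38.2, 67.8 and 49.2 CPM (4.90 ± 0.71, adjusted p = 8.67e-08).

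Some sets of intergenic regions belong to no comparison above and were picked after their values were seen. A cluster of 9 regions within 18.8 kb lay 16.8 to 35.1 kb from A1cf on chromosome 19. Its summed signal was 286, 261 and 205 CPM in control mice and 395, 451 and 395 CPM in NR4A2 mice, with 3 of the 9 regions higher, none lower and a median log2 fold change of 0.74. The symbol A1cf also stands in the strain name of the Myh6-cre/Esr1* line that both groups carry, per the labels. Another cluster of 9 regions, near Sec14l1 on chromosome 11, had 2 lower and no higher region and summed to 616, 803 and 596 CPM in control mice against 520, 627 and 448 CPM in NR4A2 mice, which overlap. A locus of 11 regions between Wnt7b and Ppara on chromosome 15 had no called region, with 453, 478 and 449 CPM against 410, 419 and 476 CPM.

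Among Nr4a genes, Nr4a3 alone was the nearest gene of an intergenic region. That region, 96 kb away, had 41.0, 22.4 and 21.7 CPM in control mice and 15.3, 18.9 and 11.4 CPM in NR4A2 mice. The NR4A2 values were all lower, but the log2 fold change of -0.83 did not pass (adjusted p = 0.195). Of 5 regions within 2 kb of a miRNA hairpin none was called. The region next to Mir17, Mir18, Mir19a and Mir20a had the largest difference of these, with 45.1, 54.5 and 74.2 CPM against 58.2, 28.4 and 17.7 CPM (-0.86 ± 0.32, adjusted p = 0.0539), and the groups overlapped.

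The X chromosome held 21 intergenic regions, of which 3 were higher (14.3%) and none lower, with a median log2 fold change of -0.35. On the autosomes the share of higher regions ran from 26.2% on chromosome 17 to 42.9% on chromosome 16. Over all regions of the X chromosome, 5.91% were higher. The sex of the mice is not given.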
